A study of Mus musculus with 27 samples.

Results

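The genes described here are 8 core genes of the Hedgehog pathway, read from mouse esophagus on Agilent 2-colour arrays. They are the ligand *Shh*, the receptors *Ptch1* and *Smo*, the cytoplasmic inhibitor *Sufu*, the transcription factors *Gli1*, *Gli2* and *Gli3*, and the ligand-binding inhibitor *Hhip*. All were taken by gene name from the scanner files, which gave 16 probes of 41174 on the array, printed as 52 spots, and 8 genes of 28091 with a name.

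The study hybridised 27 arrays, 3 for each of 9 groups, to follow esophageal development and to ask what loss of the transcription factor Nrf2, encoded by *Nfe2l2*, and of its inhibitor Keap1 changes in it. Wild-type C57BL/6J esophagus was taken whole from E11.5 and E15.5 embryos, from newborns (P0) and at P7. Whole esophagus of *Nrf2-/-*, *Keap1-/-* and *Nrf2-/-Keap1-/-* pups was taken at P7. Epithelium alone, from wild-type and *Nrf2-/-* adults of 8 weeks, made the last 2 groups, so that from P7 to adult the age and the tissue change together. The mutants were bred on a C57BL background and carry the deletion in every cell type, and each RNA came from a single esophagus. RNA of the sample carried Cy5, and a universal reference RNA pooled from 11 mouse cell lines carried Cy3 on every array.

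In Hedgehog signaling, a secreted ligand binds Patched 1, which otherwise holds the membrane protein Smoothened inactive. Once released, Smoothened acts through the primary cilium to free the Gli factors from Sufu, and Gli proteins then switch on target genes, among them *Gli1*, *Ptch1* and *Hhip* themselves. In the foregut, *Shh* is made by the endodermal epithelium and is received mainly by the mesenchyme around it, and its loss disturbs the separation of esophagus and trachea.

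Because *Ptch1* and *Hhip* are both feedback inhibitors and textbook targets whose levels moved together across the arrays, the 250 bases before their RefSeq start sites are given, 5′ to 3′, with every CG pair in capitals. The *Ptch1* sequence lies on the minus strand at chr13:63565736-63565985 and the *Hhip* sequence on the minus strand at chr8:80058009-80058258, both in GRCm38.p6, just upstream of the first exon. 
Ptch1: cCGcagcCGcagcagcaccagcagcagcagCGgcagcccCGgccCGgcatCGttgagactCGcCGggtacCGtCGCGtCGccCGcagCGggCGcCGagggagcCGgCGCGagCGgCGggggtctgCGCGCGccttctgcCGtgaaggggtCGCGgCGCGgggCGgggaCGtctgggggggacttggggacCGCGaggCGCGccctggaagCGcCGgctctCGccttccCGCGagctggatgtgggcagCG
Hhip: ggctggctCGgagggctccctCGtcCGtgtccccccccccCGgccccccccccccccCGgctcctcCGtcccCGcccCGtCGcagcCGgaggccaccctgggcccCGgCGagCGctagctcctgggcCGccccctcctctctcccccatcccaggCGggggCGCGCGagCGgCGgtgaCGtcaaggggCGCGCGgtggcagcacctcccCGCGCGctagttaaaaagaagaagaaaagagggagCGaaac

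The *Ptch1* stretch held 41 CG pairs at 78.4% G and C, and the *Hhip* stretch held 28 at 76%. The median over all promoters of the table was 6 CG pairs. The best-known Gli binding letters, GACCACCCA, were searched on both strands from 250 bases before to 50 bases after each start site. They were in 83 of 32851 promoters (0.253%) and in 0 of the 6 member promoters the table held. Their inner letters CCACCCA, which the longer motif contains, were in 3056 promoters (9.3%), in 0 of the 6 and in 2 of 43 promoters of other pathway genes, those of *Mycn* and *Prkar1a*. *Shh* and *Gli1* had no entry.

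On every array 58.9% to 69.3% of spots were well above background in Cy5, by the scanner software's own test. The median spot intensity ran from 81.8 to 225.6 in Cy5 and from 114.8 to 385.7 in Cy3. Of the deleted genes, *Nfe2l2* averaged a log2 ratio of -3.89 in *Nrf2-/-* esophagi at P7, -4.12 in *Nrf2-/-Keap1-/-* esophagi and -3.32 in *Nrf2-/-* adults, against -0.26 in wild-type P7 and 0.98 in wild-type adults. *Keap1* read -0.27 to 0.64 in *Keap1-/-* esophagi and 0.42 to 1.00 in wild-type, which overlap, and which part of the gene its probes read was not checked against the deletion. The *Keap1-/-* arrays were the only ones on their slide and in their scan session, with a median Cy3 intensity of 114.8 to 147.2 against 222.6 or more elsewhere, so genotype and slide cannot be told apart there. The wild-type P7 arrays also had a slide of their own, and embryonic, P0, P7 and adult wild-type arrays shared no slide. Slide therefore cannot be told apart from stage after E15.5, nor from genotype in any comparison with wild-type. Among the embryonic arrays, E11.5 replicate 3 correlated at 0.98 with E15.5 replicates 2 and 3 across 19638 genes and at 0.83 and 0.77 with the others of its own label, and E15.5 replicate 1 correlated at 0.96 and 0.93 with E11.5 replicates 1 and 2 and at 0.80 and 0.81 with the others of its own. The labels were kept, and for the 8 genes the number called in each comparison of stages is given with and without these 2 arrays. Comparing both embryonic groups with both postnatal groups does not depend on which embryonic label an array has.

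All values below are the log2 ratio of Cy5 to Cy3 after background correction and loess, averaged over the probes of a gene. A gene was called changed at a limma p-value of 0.05 or lower after Benjamini-Hochberg adjustment over all tested genes, and standard errors (SE) and intervals (95%) are limma's. A ratio compares one gene between arrays, and not one gene with another. RNA came from mixed tissue, in which fewer cells of a type and less RNA per cell cannot be told apart.

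The pathway genes fell together between the embryonic and the postnatal esophagus. From the mean of E11.5 and E15.5 to the mean of P0 and P7, 7 of the 8 genes were called lower, where 19.7% of all 19649 tested genes were called lower and 41.7% were called in either direction. *Hhip* fell by 2.16 on the log2 scale (4.48-fold), *Shh* by 2.08 (4.22-fold) and *Ptch1* by 1.36 (2.57-fold), and the 3 *Gli* genes by 0.64 to 0.77. *Smo* fell by 0.27, and *Sufu* was the gene not called. The median over the 8 genes was -0.75 and that over all tested genes was -0.00. For *Shh*, *Ptch1*, *Gli1*, *Gli2*, *Gli3* and *Hhip*, the 6 embryonic arrays all lay above the 6 postnatal ones, which held for 11.1% of tested genes. Without the 2 embryonic arrays that resemble the other label, all 8 genes were called lower. No slide held both embryonic and postnatal arrays, so stage and slide cannot be told apart in this comparison.

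**Figure D1:**
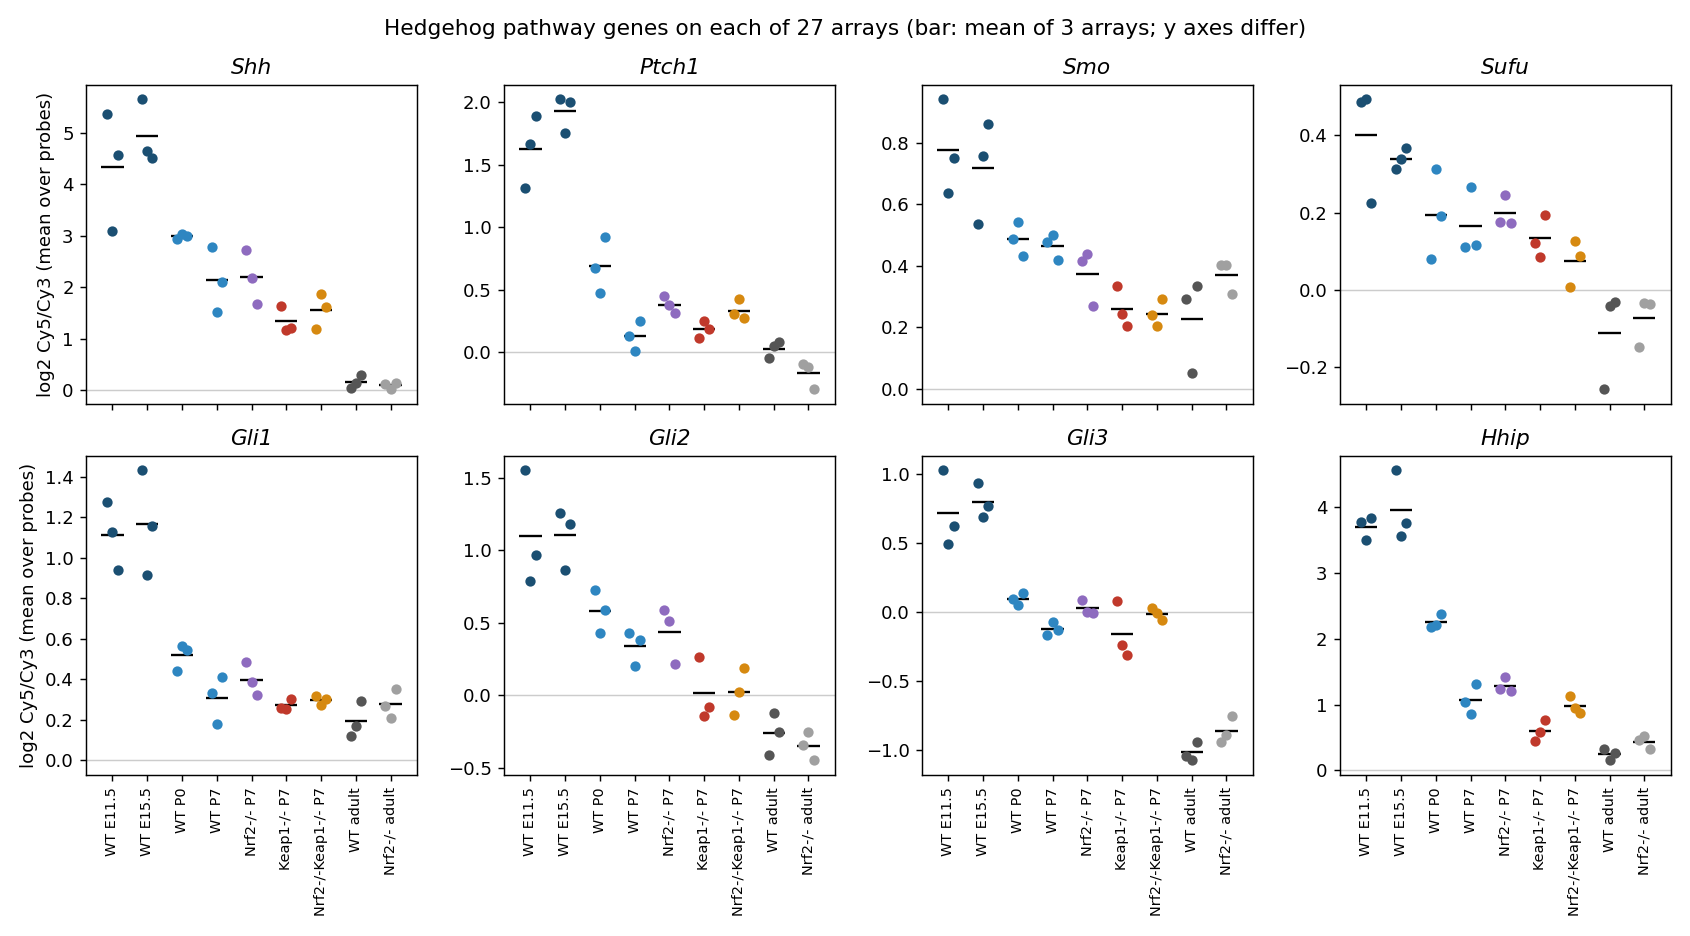
Log2 Cy5/Cy3 of each of the 8 genes (y axis, scales differ) on every array, by group along the x axis; points are single arrays and bars the mean of 3. *Shh*, *Ptch1*, *Gli1*, *Gli2*, *Gli3* and *Hhip* were highest in the embryonic groups, and *Smo* and *Sufu* had the narrowest range.

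*Shh*, the ligand, is read by 1 probe, A_52_P49014, printed 10 times, at chr5:28783983-28784042 on the minus strand in mm9, the build of the files' probe positions. On the E11.5 arrays it read 5.36, 3.08 and 4.57, on the E15.5 arrays 5.65, 4.65 and 4.52, and on the P0 arrays 2.93, 3.04 and 2.99. At P7 it read 2.78, 1.52 and 2.11. The embryonic arrays spread widely, the lowest of them, at 3.08, lay just above the highest P0 array at 3.04, and all P7 arrays were lower still. The fall from embryonic to postnatal esophagus was -2.08 (SE 0.37, limma adjusted p = 0.00139).

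The *Shh* ratio rests on a dim reference. Its Cy3 spots were well above background on 6 of 27 arrays, with a mean intensity of 31.6 to 87.5 on every array but E11.5 replicate 2, where it was 797.6 while Cy5 was 1093. The Cy5 intensity itself was 1351, 1093 and 878 on the E11.5 arrays and 1615, 886 and 984 on the E15.5 arrays. At P0 it was 266, 278 and 304, and at P7 235, 108 and 164. In Cy5 the embryonic and the postnatal arrays were far apart, with no overlap. Read from the Cy5 channel alone, *Shh* fell by 2.57 (limma adjusted p = 0.000106), and without E11.5 replicate 2 the ratio fell by 2.39 (limma adjusted p = 0.000198). With the scanner software's processed signals the change was 0.13 (limma adjusted p = 0.886), and with the deposited ratios 0.14 (limma adjusted p = 0.877), so under both the direction turned and the call was lost. From E11.5 to P7 the same 2 settings gave 0.41 and 0.42.

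**Figure D2:**
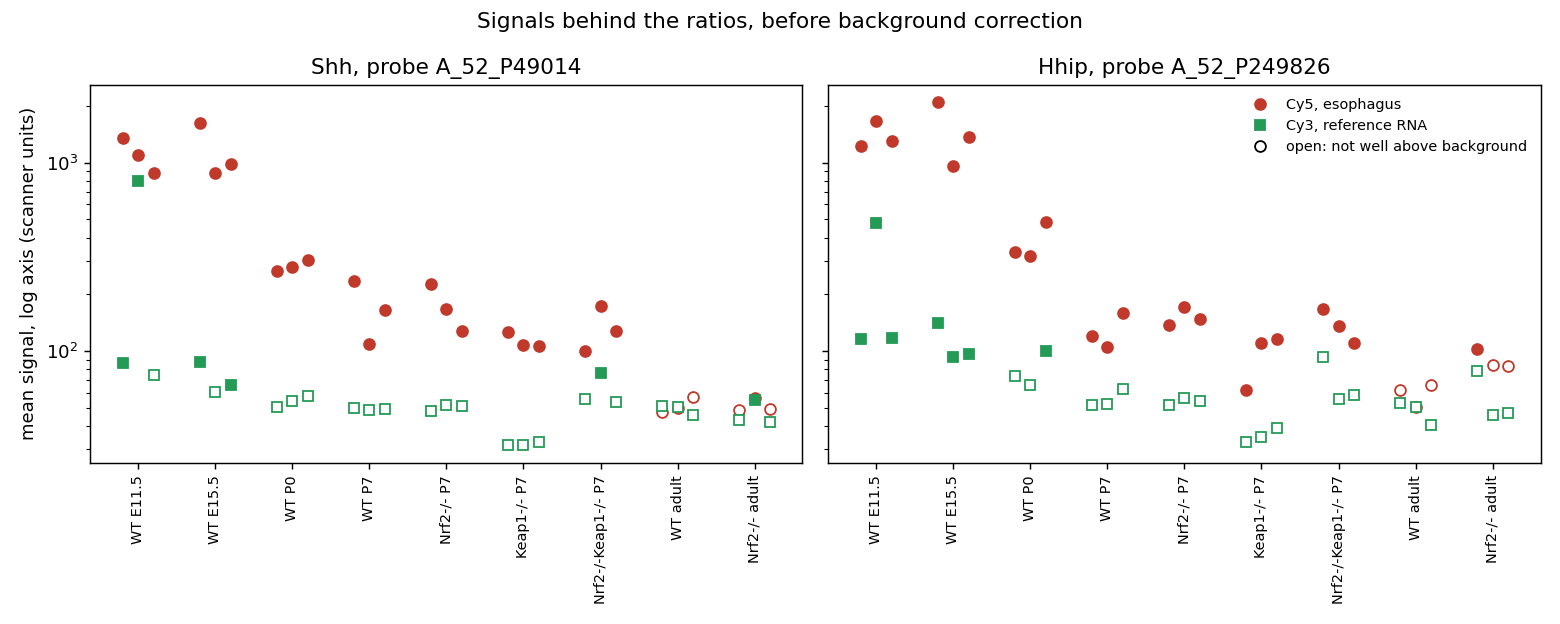
Mean spot intensity before normalization, on a log axis, in Cy5 (sample) and Cy3 (reference) for the *Shh* probe and the *Hhip* probe A_52_P249826, by group; points are single arrays. The *Shh* Cy5 intensity ran from 878 to 1615 in the embryonic arrays and from 108 to 304 at P0 and P7, while Cy3 stayed at 87.5 or lower on all arrays but E11.5 replicate 2.

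*Ptch1*, the receptor that binds the ligand and a target of the pathway, read 1.32, 1.66 and 1.89 at E11.5, 2.02, 1.76 and 2.00 at E15.5, and 0.67, 0.47 and 0.92 at P0. At P7 it read 0.13, 0.01 and 0.25. Both embryonic groups were high and overlapped, P0 lay between, and P7 was lowest with no overlap with P0. The fall from embryonic to postnatal arrays was -1.36 (SE 0.12, limma adjusted p = 1.71e-05). Both probes fell, A_51_P127435 at chr13:63612907-63612966 by 1.07 and A_52_P598605 at chr13:63610298-63610357 by 1.66, both on the minus strand in mm9.

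*Smo*, the signal transducer held in check by Patched 1, read 0.94, 0.64 and 0.75 at E11.5, 0.54, 0.76 and 0.86 at E15.5, 0.49, 0.54 and 0.43 at P0, and 0.48, 0.50 and 0.42 at P7. The embryonic arrays were higher, and the lowest of them overlapped the highest at P0. *Smo* fell by 0.27 (SE 0.08, limma adjusted p = 0.0212), and the call was lost with outlier-marked spots left out (-0.14, limma adjusted p = 0.28), with the processed signals (-0.33, limma adjusted p = 0.0997), with the deposited ratios (-0.29, limma adjusted p = 0.124) and without P0 replicate 3 (-0.26, limma adjusted p = 0.0523). Of its 3 probes, A_51_P258766 and A_52_P444864 fell by 0.41 and 0.44 (limma adjusted p = 0.00642 and 0.024), and A_51_P392665 was well above background on 1 array in all.

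*Sufu*, which keeps the Gli factors inactive in the cytoplasm, read 0.49, 0.49 and 0.22 at E11.5, 0.31, 0.34 and 0.37 at E15.5, 0.08, 0.31 and 0.19 at P0, and 0.11, 0.27 and 0.12 at P7. The embryonic and postnatal ranges overlapped. The difference was -0.19 (95% interval -0.36 to -0.02, limma adjusted p = 0.0705), and it was called without E11.5 replicate 3 (-0.24, limma adjusted p = 0.0273). The probes disagreed. A_52_P340811 fell by 0.45 (limma adjusted p = 0.00857), while A_51_P396550 differed by 0.04 (95% interval -0.13 to 0.22) and A_52_P603184 by -0.17 (95% interval -0.39 to 0.06). A_52_P340811 carries the name *Sufu* only in the older of 2 annotations in the files, on 20 arrays, and a transcript identifier in the newer one.

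*Gli1*, the activator that is itself a target and so a common readout of signaling, read 1.27, 1.13 and 0.94 at E11.5, 1.43, 0.91 and 1.16 at E15.5, 0.44, 0.56 and 0.54 at P0, and 0.33, 0.18 and 0.41 at P7. Every embryonic array was higher than every postnatal one. It fell by 0.73 (SE 0.10, limma adjusted p = 0.000328), as read by 1 probe at chr10:126767991-126768050 on the minus strand in mm9. *Gli2*, the main activator of the pathway, read 1.55, 0.79 and 0.97 at E11.5, 1.26, 0.87 and 1.18 at E15.5, 0.73, 0.43 and 0.59 at P0, and 0.43, 0.20 and 0.38 at P7. Its embryonic arrays also all lay above its postnatal ones, the nearest by 0.79 against 0.73. It fell by 0.64 (SE 0.13, limma adjusted p = 0.00354), of which probe A_52_P357829, well above background on all 27 arrays, showed -1.19 and A_52_P564620, well above background on 4, showed -0.09.

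*Gli3*, which acts mainly as a repressor when no ligand is bound, read 1.03, 0.50 and 0.63 at E11.5, 0.94, 0.69 and 0.77 at E15.5, 0.10, 0.05 and 0.14 at P0, and -0.17, -0.07 and -0.13 at P7. The embryonic arrays were high, P0 was lower on every array, and P7 lay below P0. It fell by 0.77 (SE 0.10, limma adjusted p = 0.000169), with probe A_51_P171288 at -1.24 and the dimmer A_51_P410070 at -0.30, both called.

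*Hhip*, a membrane protein that binds and sequesters the ligand and is a target of the pathway, read 3.76, 3.50 and 3.83 at E11.5, 4.56, 3.56 and 3.75 at E15.5, and 2.18, 2.21 and 2.38 at P0. At P7 it read 1.04, 0.86 and 1.31. The steps were separate, with the embryonic groups high and overlapping, P0 in the middle and P7 low. It fell by 2.16 (SE 0.16, limma adjusted p = 6.58e-06), and its probes by 1.99 at chr8:82490729-82490788 (A_51_P416822) and 2.34 at chr8:82496214-82496273 (A_52_P249826), both on the minus strand in mm9. Its reference was dim as well, since Cy3 was well above background on 7 arrays for A_52_P249826 and on 0 for A_51_P416822. From the Cy5 channel alone the fall was 2.34 (limma adjusted p = 1.44e-05).

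Taken stage by stage, the estimated fall from E15.5 to P0 was larger than that from P0 to P7 for all 8 genes, a difference that was not tested. From E11.5 to E15.5 none of the 8 genes was called by limma (0% of all tested genes), none reached an unadjusted p of 0.05, and 0 of 8 had groups that did not overlap (3.77% of tested genes). The differences ran from -0.06 for *Sufu* to 0.60 for *Shh*, the latter with a 95% interval of -0.56 to 1.76. Without the 2 arrays that resemble the other label, *Shh* differed by 0.36 and *Ptch1* by 0.39, neither called. Across the 4 wild-type stages, limma's F test called 6 of 8 genes, all but *Smo* and *Sufu*, where it called 30.2% of tested genes, and 6 of 8 without the 2 doubtful arrays.

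From E15.5 to P0, 5 of the 8 genes were called lower (8.53% of tested genes were called lower, 19.8% in either direction). *Shh* fell by 1.95 (SE 0.52, limma adjusted p = 0.0251), *Hhip* by 1.70, *Ptch1* by 1.24, *Gli3* by 0.70 and *Gli1* by 0.65. *Gli2* differed by -0.52 (95% interval -0.94 to -0.10, limma adjusted p = 0.0811). Its brighter probe A_52_P357829 was called on its own, at -1.03 (limma adjusted p = 0.018), and the dim A_52_P564620 differed by -0.01. The *Shh* call was lost when E15.5 replicate 1 or any P0 array was left out, at adjusted p-values of 0.0712 to 0.0883, and without both doubtful embryonic arrays it was -1.60 (limma adjusted p = 0.0776), which left 4 genes called. With the processed signals and the deposited ratios *Shh* differed by -0.15 and -0.14 at this step (limma adjusted p = 0.927 and 0.932), and with median centring by -1.52 (limma adjusted p = 0.0758). *Gli2* was called without E11.5 replicate 1 (limma adjusted p = 0.0273). Between P0 and P7 1 of 8 was called lower (0.947% of genes, and 2.43% in either direction), *Hhip* at -1.19 (SE 0.23, limma adjusted p = 0.0249), a call that was lost without any of the P0 arrays or P7 replicate 1 or 2, at adjusted p-values of 0.067 to 0.113. *Ptch1* differed by -0.56 (95% interval -0.93 to -0.19, limma adjusted p = 0.132) and *Shh* by -0.85 (95% interval -2.01 to 0.30). P0 and P7 arrays did not overlap for *Shh*, *Ptch1*, *Gli1*, *Gli2*, *Gli3* and *Hhip*, a separation whose share over all genes is not given. From E11.5 to P7 6 of 8 were called lower (13.5% of genes, and 30.3% in either direction), from *Hhip* at -2.63 to *Gli2* at -0.76, with *Smo* at -0.31 (limma adjusted p = 0.0643) and *Sufu* at -0.24 (limma adjusted p = 0.128). The *Smo* probes A_51_P258766 and A_52_P444864 were each called on their own, at -0.49 and -0.58 (limma adjusted p = 0.0234 and 0.0439). Without the 2 doubtful arrays 7 genes were called, with *Hhip* at -2.57, *Shh* at -2.09 and *Sufu* gained at -0.33 (limma adjusted p = 0.0425), while from P0 to P7 1 was called as before. These comparisons share arrays with each other and with that of embryonic and postnatal esophagus.

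**Figure D3:**
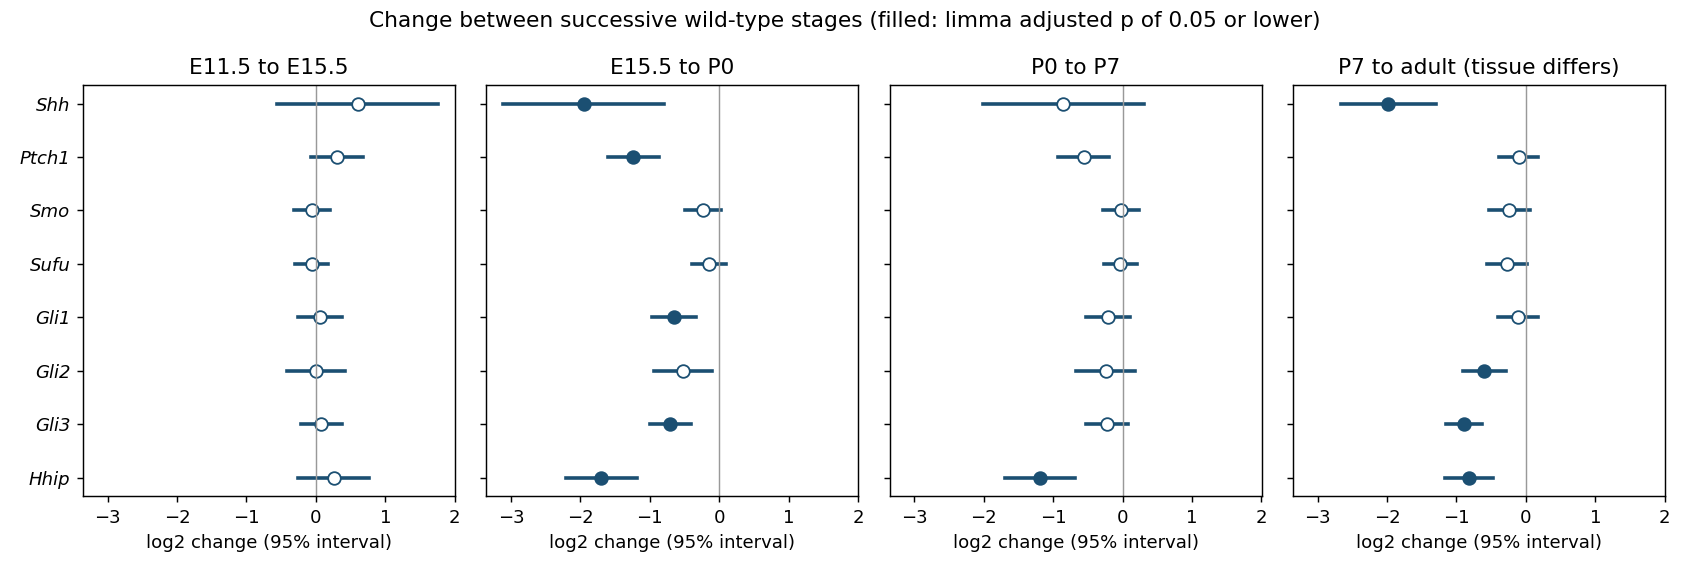
Log2 change of each gene (x axis, with 95% interval) between successive wild-type stages; filled points passed the limma threshold. From E15.5 to P0, 5 genes were filled and lay between -0.65 and -1.95, and from E11.5 to E15.5 every interval crossed 0.

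Cell type markers moved over the same steps. The mean log2 ratio of 4 proliferation markers was -0.13 at E11.5 and -0.22 at E15.5, and -0.85 at P0 and -0.89 at P7, and all 4 were called lower after birth. The 5 striated muscle markers averaged 0.62, 1.27, 3.73 and 4.67 and the 4 suprabasal squamous markers 1.94, 2.70, 5.24 and 5.79 over the same stages, and all 9 were called higher. Of 7 fibroblast and mesenchyme markers, 1 was called higher and 1 lower, with list means of 1.23, 1.57, 1.67 and 1.51. Smooth muscle markers averaged 2.31, 3.05, 3.82 and 4.01, and 1 of 5 was called higher. The cartilage list, for trachea that embryonic dissections could hold, averaged 0.81, 0.72, 0.31 and 0.24 with 2 of 4 tested called lower, and the airway and lung list 0.45, 0.80, 1.38 and 0.13 with 1 of 3 tested called higher. The part of these lists in the fall of the Hedgehog genes was not tested. 

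**Figure D4:**
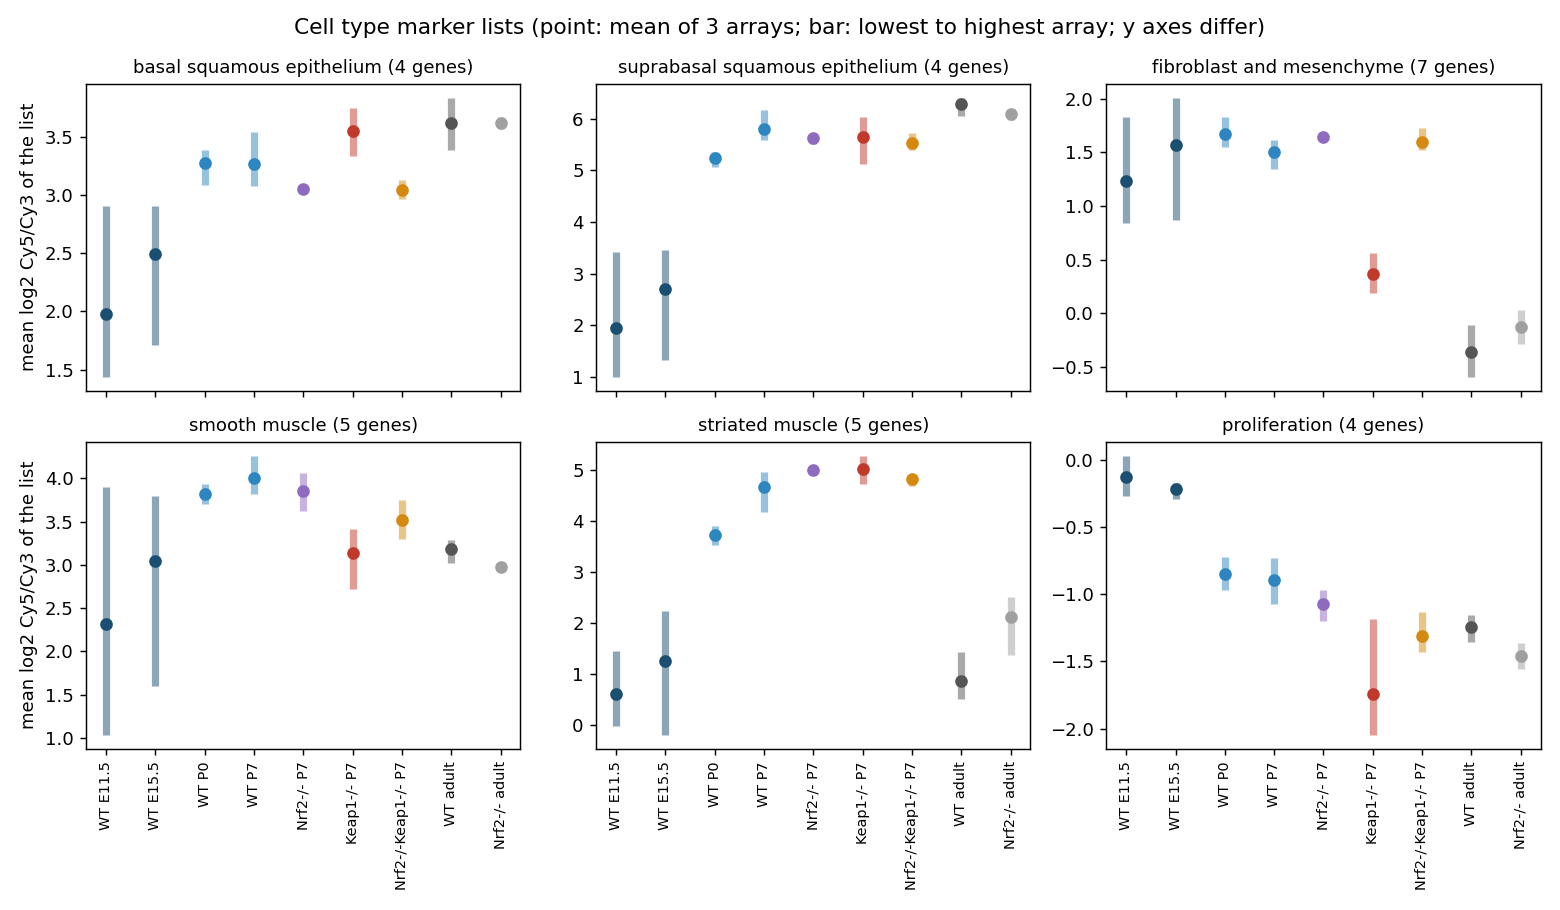
Mean log2 Cy5/Cy3 of 6 cell type marker lists (y axis, scales differ) by group; points are the mean of 3 arrays and bars run from the lowest to the highest array. The fibroblast and mesenchyme list lay at 1.23 to 1.67 from E11.5 to P7 in wild-type and at -0.36 in wild-type adult epithelium.

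Between P7 esophagus and adult epithelium of wild-type mice, 4 of the 8 genes were called lower (23.1% of 17951 tested genes were called lower, 43% in either direction). The adult arrays read 0.04, 0.14 and 0.29 for *Shh*, 0.32, 0.16 and 0.26 for *Hhip*, -0.41, -0.12 and -0.25 for *Gli2* and -1.04, -1.07 and -0.94 for *Gli3*. All of these lay below the P7 arrays given above, a separation whose share over all genes is not given. *Shh* and *Hhip* were not well above background on any wild-type adult array, so only a bound can be given, the mean P7 level over the higher of the adult spot and the dimmest detected probes of its array. *Shh* was at least 3.12-fold lower (limma adjusted p = 0.00157) and *Hhip* at least 1.56-fold lower (limma adjusted p = 0.00357). Both passed the filter of 3 arrays above background through the P7 arrays alone, which favoured a fall. Their 2 calls among the 4 therefore carry no weight as support. *Gli3* fell by 0.89 (SE 0.11, limma adjusted p = 0.000745) and *Gli2* by 0.60 (SE 0.13, limma adjusted p = 0.00913), and their brighter probes by 1.58 and 1.15. Leaving out a P7 array put *Shh* and *Hhip* below the minimum of 3 arrays above background, so that they were not tested and 2 genes were called. With median centring the calls of *Hhip* (-0.65, limma adjusted p = 0.0589) and *Gli2* (-0.54, limma adjusted p = 0.0535) were lost, and that of *Gli2* also with the processed signals or deposited ratios (limma adjusted p = 0.0927 for both).

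The other 4 genes did not pass the test from P7 to adult. *Ptch1* read -0.05, 0.05 and 0.08 in adult epithelium and differed by -0.10 (95% interval -0.38 to 0.18), *Gli1* read 0.12, 0.17 and 0.29 and differed by -0.12 (95% interval -0.40 to 0.17). In both, the adult arrays overlapped P7. For *Ptch1* both channels were brighter in adult arrays, by 0.55 in Cy5 (limma adjusted p = 0.0112) and by 0.66 in the Cy3 reference (limma adjusted p = 0.000498), and the reference RNA was the same. With the processed signals, the deposited ratios and median centring the *Ptch1* difference was -1.01, -1.02 and -0.60 and was called, at adjusted p-values of 0.00618 to 0.027. *Smo* read 0.29, 0.05 and 0.33 and *Sufu* -0.26, -0.04 and -0.03, with differences of -0.24 (limma adjusted p = 0.162) and -0.27 (limma adjusted p = 0.113). All of these adult arrays lay below P7, in a comparison where 43% of all tested genes were called. The share of all genes so separated is not given. Single probes of both passed, *Smo* A_51_P258766 at -0.56 (limma adjusted p = 0.0419) and *Sufu* A_52_P340811 at -0.73 (limma adjusted p = 0.00869).

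The markers of the wall were lower in adult epithelium too. All 7 fibroblast and mesenchyme markers were called lower, from a list mean of 1.51 at P7 to -0.36, all 5 striated muscle markers from 4.67 to 0.86, and 3 of 5 smooth muscle markers from 4.01 to 3.18. All of them were still well above background on the 3 adult arrays. Epithelial lists went both ways. Basal squamous markers averaged 3.27 at P7 and 3.62 in adults, suprabasal squamous markers 5.79 and 6.29, and simple epithelium markers 1.65 and -0.16. Age and dissected tissue cannot be told apart in this comparison.

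With loss of Nrf2 alone, no member was called changed at P7. The *Nrf2-/-* arrays read 2.73, 2.17 and 1.66 for *Shh*, 0.45, 0.38 and 0.31 for *Ptch1*, 1.23, 1.42 and 1.21 for *Hhip* and 0.48, 0.38 and 0.32 for *Gli1*. For *Shh*, *Hhip* and *Gli1* they overlapped wild-type, as for *Gli2*, *Sufu* and *Smo*, which differed by 0.10, 0.03 and -0.09. For *Ptch1* all 3 were above wild-type. The same held for *Gli3*, at 0.088, 0.005 and -0.008, which differed by 0.15 (limma adjusted p = 0.611). The share of all genes apart in this way is not given. By limma 0 of 8 genes were called (0.0158% of 19005 tested genes), and 1 reached an unadjusted p of 0.05, *Ptch1*, at 0.25 (95% interval 0.05 to 0.45, limma adjusted p = 0.411). Its probe A_52_P598605 differed by 0.41 and A_51_P127435 by 0.085. In adult epithelium the 6 genes tested gave 0 calls by limma (0.439%) and 0 at an unadjusted p of 0.05, and *Shh* and *Hhip*, well above background on 1 *Nrf2-/-* array each, were not tested. There *Ptch1* read -0.09, -0.12 and -0.30 in *Nrf2-/-* epithelium, all below wild-type, a difference of -0.20 (95% interval -0.46 to 0.07, limma adjusted p = 0.429). Within the scan session that held both adult genotypes, 1 wild-type and 2 *Nrf2-/-* arrays, it was -0.19. How common such a separation was over all genes is not given. The other tested genes differed by -0.09 for *Gli2* to 0.16 for *Gli3*.

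In *Keap1-/-* esophagi at P7, 1 of the 8 genes was called lower (18% of tested genes were called lower, and 33.4% in either direction). *Hhip* read 0.45, 0.59 and 0.76 in *Keap1-/-*, below every wild-type array, and fell by 0.47 (SE 0.13, limma adjusted p = 0.0204). How common such a separation was over all genes is not given. The call was lost without *Keap1-/-* replicate 1 or 2 or wild-type P7 replicate 3, at adjusted p-values of 0.0588 to 0.0732. *Hhip* differed by -0.26 in Cy5 alone (limma adjusted p = 0.224), and after normalization its Cy3 reference was 0.21 higher on the *Keap1-/-* arrays (limma adjusted p = 0.0115). Before normalization the Cy3 intensity was lower there, at 32.8 to 39.0 against 51.4 to 63.1 in wild-type for A_52_P249826. Neither *Hhip* probe was well above background in Cy3 on any array of these 2 groups. On the *Keap1-/-* arrays 64.7% of tested genes differed in Cy3 alone, where the RNA was the same reference.

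*Shh* read 1.63, 1.17 and 1.21 in *Keap1-/-* esophagi and overlapped wild-type at 1.52, with a difference of -0.80 (95% interval -1.53 to -0.06, limma adjusted p = 0.0894). It was called without wild-type P7 replicate 2 (-1.10, limma adjusted p = 0.0259). *Smo* read 0.33, 0.24 and 0.20, below every wild-type array (-0.20, limma adjusted p = 0.0755), a separation whose share over all genes is not given. *Gli2* read 0.26, -0.14 and -0.08 (-0.33, limma adjusted p = 0.101). Without *Keap1-/-* replicate 1, *Gli2* was called (limma adjusted p = 0.0303), as was its probe A_52_P357829 over all arrays at -0.60 (limma adjusted p = 0.0441). *Ptch1*, *Sufu*, *Gli1* and *Gli3* differed by -0.04 to 0.05, none called. In all, 4 genes reached an unadjusted p of 0.05. The direction for *Ptch1* depended on the setting, at 0.05 with loess, -0.42 with median centring (limma adjusted p = 0.00499) and 0.49 in Cy5 alone (limma adjusted p = 0.0143).

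In *Nrf2-/-Keap1-/-* esophagi 0 of 8 genes were called by limma (0.426%) and 2 reached an unadjusted p of 0.05, *Smo* at -0.22 and *Gli2* at -0.31. *Hhip* read 1.13, 0.94 and 0.87, within the wild-type range, and *Shh* 1.19, 1.86 and 1.61. *Ptch1* and *Gli3* lay above every wild-type array, and *Smo* and *Gli2* below, separations whose share over all genes is not given. *Ptch1* differed by 0.20 (limma adjusted p = 0.287) and *Gli3* by 0.11 (limma adjusted p = 0.621). In Cy5 alone *Ptch1* was called higher, at 0.62 (limma adjusted p = 0.0457). *Sufu* and *Gli1* differed by -0.09 and -0.01. Set directly against the double mutant, *Keap1-/-* esophagi had 1 of 8 genes called lower (18.3% of genes, and 33.5% in either direction), *Hhip* at -0.38 (SE 0.13, limma adjusted p = 0.0477). That call was lost without any 1 of 9 of the 12 arrays, at adjusted p-values of 0.055 to 0.16. The test of whether Keap1 loss acts differently with and without Nrf2 called 0 of 8 (15.2% of tested genes), with 0 at an unadjusted p of 0.05, and gave *Hhip* -0.16 (95% interval -0.58 to 0.25). These 3 comparisons share the *Keap1-/-* or the wild-type arrays.

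*Keap1-/-* esophagi also differed in cell type markers. The 7 fibroblast and mesenchyme markers averaged 0.36 against 1.51 in wild-type, with 6 called lower, and 4 of 5 smooth muscle markers were lower and 1 higher. All 4 simple epithelium markers were called lower, with a list mean of -0.59 against 1.65, and 3 of 4 proliferation markers (-1.74 against -0.89). Every one of these markers was still well above background on all 3 arrays. In *Nrf2-/-Keap1-/-* esophagi the mesenchyme list averaged 1.59, the simple epithelium list 1.13 and the proliferation list -1.31. The fat list differed between the P7 genotypes. It averaged 1.68 in wild-type, 3.06 in *Nrf2-/-*, 2.59 in *Keap1-/-* and 4.84 in *Nrf2-/-Keap1-/-* esophagi. The part of these lists in the *Hhip* difference was not tested.

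Another 41 pathway genes, from ligands to targets, were all on the array. All 6 embryonic arrays entered the values given here unless said otherwise. From embryonic to postnatal esophagus 15 of 41 were called lower and 7 higher, with a median of -0.20. Of all tested genes 19.7% were called lower and 41.7% in either direction. Of the 8 known targets outside the main genes, 7 were called lower. The forkhead factors of gut mesenchyme fell by 1.46 for *Foxf2* and 1.40 for *Foxf1*, the cell cycle regulator *Mycn* by 1.50, and the signaling ligand *Bmp4* by 0.79. *Foxl1* was called lower and was not well above background on any P0 or P7 array. It passed the filter through embryonic arrays alone, which favoured a fall. *Ccnd2* was the target not called. *Foxf1* read 2.70, 1.91 and 2.46 at E11.5, 2.94, 2.10 and 2.26 at E15.5, 1.23, 1.07 and 1.16 at P0 and 0.83, 0.55 and 1.13 at P7, and no embryonic array overlapped a postnatal one. *Foxf1*, *Foxl1* and *Bmp4* were picked out after their values were seen.

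Of the other ligands, *Dhh*, which is made by Schwann cells of peripheral nerves, had the opposite direction. It read 1.02, 2.01 and 1.81 at E11.5 and 1.50, 0.53 and 1.61 at E15.5, then 3.13, 2.77 and 2.22 at P0 and 3.78, 3.10 and 3.65 at P7. Every postnatal array was higher, and the rise was 1.69 (SE 0.25, limma adjusted p = 0.00049). The enteric neuron and glia markers averaged 1.23, 1.60, 1.13 and 1.22 over the 4 stages, with 1 of 6 tested called higher and 2 lower, and their part was not tested. Of 4 receptors and co-receptors, 0 were called by limma, and *Lrp2* (-0.33) was the one at an unadjusted p under 0.05. Ligand processing genes gave 1 rise, *Scube2*, which helps release the ligand (0.80), and 1 fall of 6. Of 11 regulators of Smo and Gli, 4 rose, among them the kinase subunit *Prkaca* (0.63), and 2 fell. *Prkaca* was not called with median centring (0.31, limma adjusted p = 0.34), in Cy5 alone (0.52, limma adjusted p = 0.0797), without the 2 doubtful embryonic arrays (0.64, limma adjusted p = 0.0556) or without any of 5 single arrays, at adjusted p-values of 0.0589 to 0.0694. Of 7 cilium assembly genes, 4 fell by 0.23 to 0.41. Of the 3 endoderm factors, *Foxa2*, which drives *Shh* in endoderm, fell by 3.88 (SE 0.62, limma adjusted p = 0.000702) and *Foxa1* rose by 0.50.

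**Figure D5:**
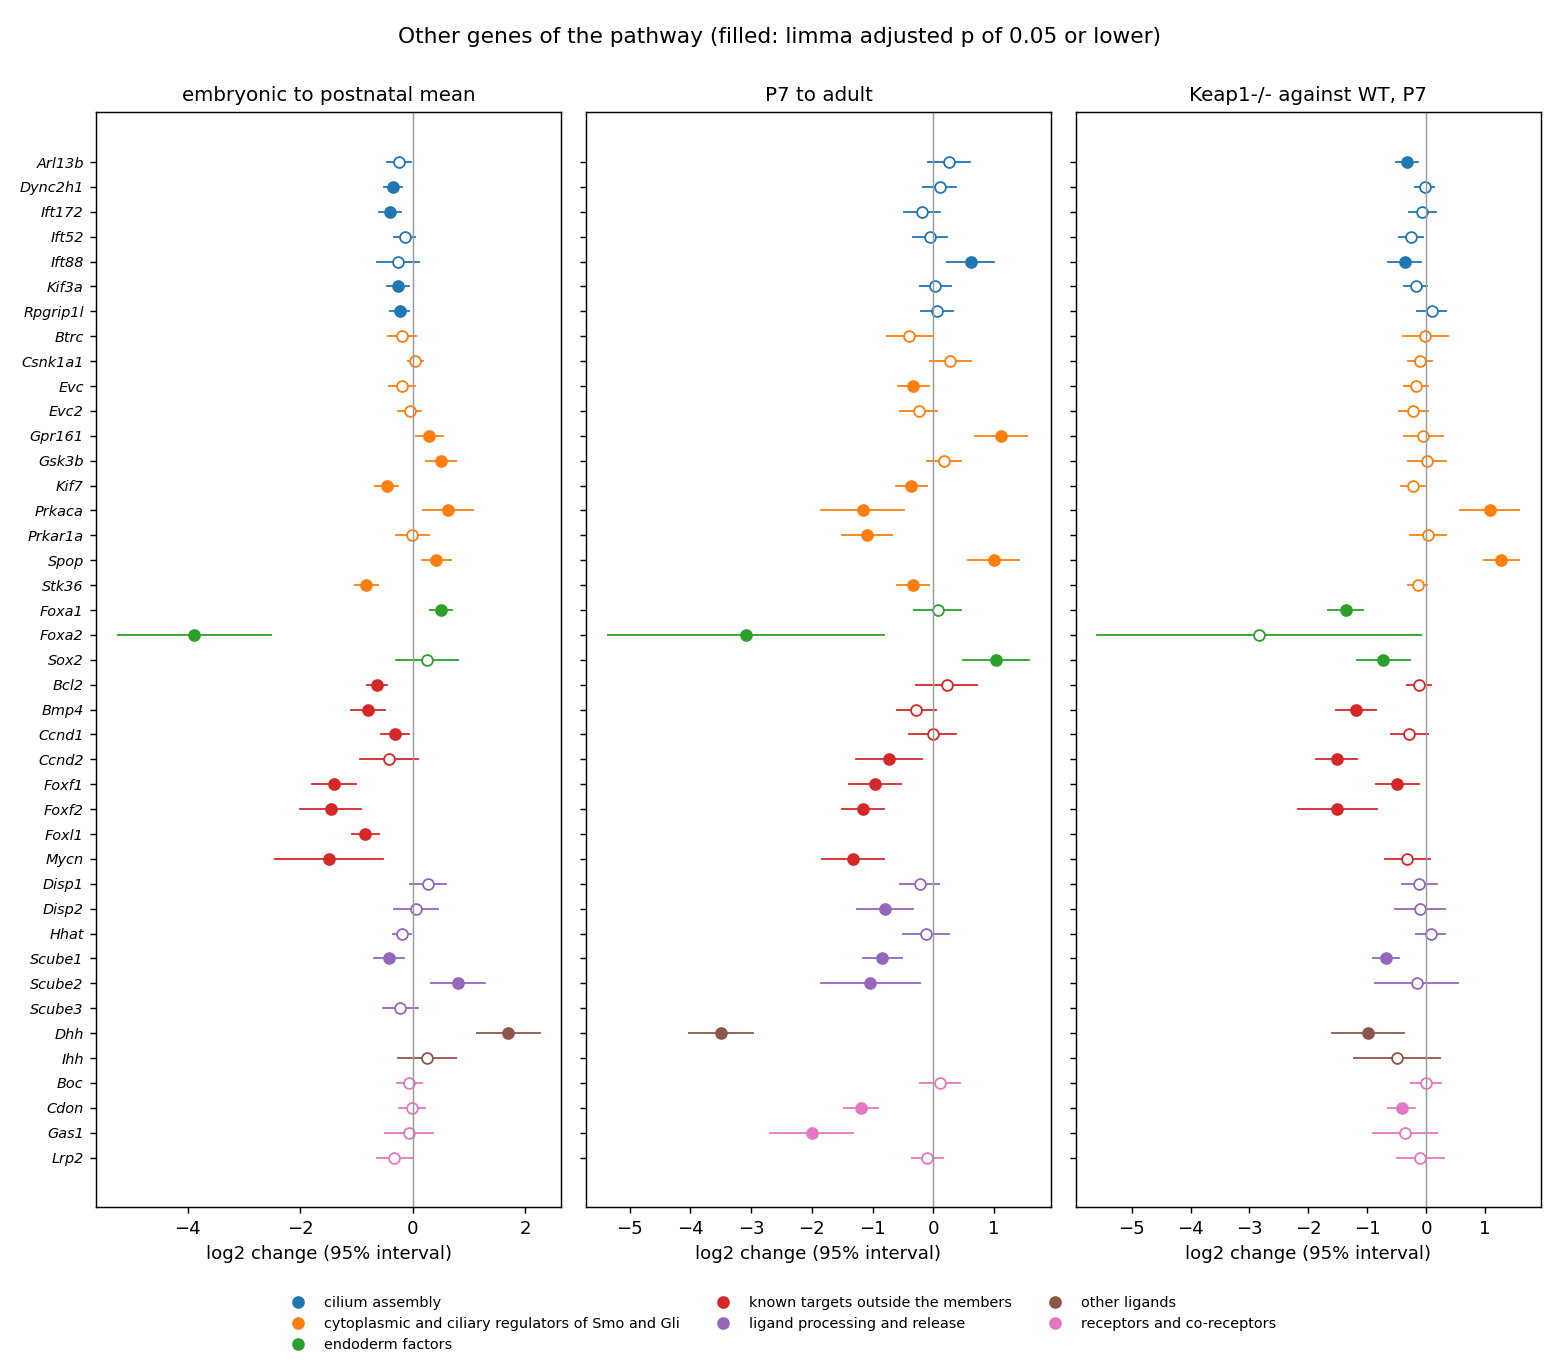
Log2 change (x axis, ranges differ between panels) of 41 other pathway genes, grouped by role along the y axis; filled points passed the limma threshold. From embryonic to postnatal esophagus, 7 of 8 known targets lay below 0 and passed, while *Dhh* rose by 1.69.

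From P7 to adult epithelium 16 of 38 tested genes of these lists were called lower and 4 higher. Of all tested genes 23.1% were called lower and 43% in either direction. *Dhh* fell by 3.50 (SE 0.23, limma adjusted p = 4.8e-05), reading -0.30, 0.01 and 0.33 in adults, all below P7, and 5 of 5 tested enteric neuron and glia markers were called lower too, from a list mean of 1.22 to 0.08. *Gas1*, a co-receptor, fell by 2.00, and *Foxa2*, at 3.54, 0.51 and -0.79 on the P7 arrays, was not well above background on any adult array. Its bound was at least 7.91-fold lower (limma adjusted p = 0.0364), and the call was lost without any adult array, at adjusted p-values of 0.0707 to 0.104. *Foxa2* too passed the filter through the P7 arrays alone, which favoured a fall. The receptor *Gpr161*, which restrains the pathway in the cilium, rose by 1.12, the foregut factor *Sox2* by 1.04 (0.11 and not called under scale normalization) and *Spop*, an adaptor for Gli degradation, by 1.00. From E15.5 to P0 3 of 41 rose and 10 fell, where 8.53% of all tested genes were called lower and 19.8% in either direction. The rises were *Dhh* (1.49), *Gsk3b* (0.63) and *Gpr161* (0.59), and the falls were led by *Foxa2* (-3.46), *Foxf2* (-1.30) and *Foxf1* (-1.28). Each of these calls but that of *Foxf1* was lost without 1 or more single arrays, at adjusted p-values of 0.0505 to 0.0938. From P0 to P7 the cyclin *Ccnd1* rose by 1.23 and none fell, where 2.43% of all tested genes were called in either direction.

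In *Keap1-/-* esophagi 11 of 39 tested genes of these lists were called lower and 2 higher than in wild-type. Of all tested genes 18% were called lower and 33.4% in either direction. *Ccnd2*, a cyclin, fell by 1.51, *Foxf2* by 1.50 and *Foxa1* by 1.36, and *Spop* rose by 1.27 and *Prkaca* by 1.08. Against the double mutant 11 were lower and 1 higher (18.3% of all tested genes were lower, 33.5% called in either direction), with *Dhh* at -1.71, *Ccnd2* at -1.33, *Foxa1* at -1.25 and *Spop* at 0.80. The difference between Keap1 loss with and without Nrf2 was called for 5 of 39 (15.2% of all tested genes), lower for *Foxa1*, *Ccnd2*, *Bmp4* and *Scube1* and higher for *Spop*. For *Nrf2-/-* and *Nrf2-/-Keap1-/-* esophagi at P7 and for *Nrf2-/-* adult epithelium, limma called none of the 39, 39 and 36 tested (0.0158%, 0.426% and 0.439% of all tested genes).

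Ordered by group mean, *Shh* ran from E15.5 (4.94 ± 0.62, SD, n = 3) and E11.5 (4.34 ± 1.16), which overlapped, through P0 (2.99 ± 0.06) to the P7 genotypes, *Nrf2-/-* (2.19 ± 0.53), wild-type (2.13 ± 0.63), *Nrf2-/-Keap1-/-* (1.56 ± 0.34) and *Keap1-/-* (1.34 ± 0.25), each of which overlapped the next. Adult wild-type (0.15 ± 0.12) and adult *Nrf2-/-* (0.09 ± 0.07) came last, overlapped each other and were apart from all P7 groups. *Ptch1*, *Gli1*, *Gli2*, *Gli3* and *Hhip* shared the first 3 places, E15.5, E11.5 and P0. Both adult groups came last for every gene but *Smo* and *Gli1*.

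Across the 27 arrays, which share groups and a reference, Pearson's r between the 8 genes ran from 0.70 (*Smo* and *Sufu*) to 0.97 (*Shh* and *Gli2*). The 3 genes most like each member, among 20661 genes with a value on every array, included pathway genes for *Ptch1* (*Stk36*, a regulator of Gli, and *Hhip*, both at 0.97), for *Hhip* (*Foxf1*, 0.97), for *Gli2* (*Shh*, 0.97) and for *Smo* (*Ift172*, of cilium assembly, 0.91). Nearest of all genes were *Gm5933* for *Shh* (0.97), *Nt5dc2* for *Gli2* (0.97), *Cyp26a1* for *Gli1* (0.97), *Polr2m* for *Gli3* (0.98), *Pnma2* for *Hhip* (0.97) and *Samd14* for *Sufu* (0.91).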

How the data were processed

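RNA of 27 esophagus samples, in Cy5, was hybridised with a common reference in Cy3 on Agilent mouse arrays, and read out with Agilent Feature Extraction (9.1 in the submitters' notes, 10.5.1.1 or 10.7.3.1 in the file headers). The file headers name an Agilent scanner, whereas the study's methods name an Axon GenePix scanner and its software. The deposited scanner files give spot intensity in each channel and a log10 ratio of red over green, and the deposited value table holds the same log10 ratio averaged per probe, converted here to log2 and used as an alternative. Probe positions given with the files are in mm9 and were not converted.

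Mean intensities were corrected with normexp (offset 50) and normalized by loess in limma 3.58.1 (R 4.3.3). Spots whose local background exceeded 5 times the array's median took that median for normalization and were then left out of the means. Spots marked as outliers were kept. Gene values are means over probes of spot means. A gene was tested if a probe was well above background in Cy5 on 3 arrays of the comparison, which left 17951 to 19649 genes, and p-values were adjusted over these by Benjamini-Hochberg. Wild-type stages, P7 genotypes, wild-type P7 and adults, and adult genotypes were fitted separately. The study's own test could not be run here, so limma was used. The number of arrays limits precision.

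Replicates are samples with separate labels, each from 1 esophagus. The replicate numbers did not pair the samples, since deviations of same-numbered arrays correlated from -0.46 to 0.64. All 8 members are counted in every comparison that tested them. Against the double mutant, and in the test of Keap1 loss with and without Nrf2, only *Hhip* has values. Of the other pathway genes, the 3 largest rises and the 3 largest falls among those called are described, with exceptions named. Members, gene lists and marker lists were chosen with earlier results of these data known. Simulated data had 200 changed genes per comparison and noise drawn independently for each gene and array. On these, 57% of genes changed by 1 on the log2 scale were recovered for E11.5 to E15.5, and 92% of those changed by 2. These shares were 46% and 89% for P7 to adult wild-type. For *Nrf2-/-* against wild-type they were 78% and 96% at P7, and 63% and 98% in adult epithelium. Recovery when arrays resemble the other label, as E11.5 replicate 3 and E15.5 replicate 1 do, was not tested. Nor was it tested where a large share of genes changes, as from P7 to adult, or for *Keap1-/-* esophagi. Promoter sequences are from RefSeq (GRCm38.p6), which matched 6 of 8 members. The alternatives were other background corrections, scalings, filters, probe rules, blocks and arrays left out, among them the 2 doubtful embryonic arrays together; single-channel tests, single-probe tests and the mean over probes above background were chosen after seeing the data. 1 gene of the wider pathway lists is not reported here.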

Additional observations from a re-analysis of the deposited data

Results flagged for a closer look

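*Ptch1* had opposite differences in *Nrf2-/-* mice at P7 (0.25 on the log2 scale) and in adult epithelium (-0.20). Probe A_52_P598605 showed 0.41 and -0.31, and A_51_P127435 showed 0.085 and -0.079. A_52_P598605 was well above background in Cy5 on 1 of 3 wild-type P7 arrays. Its Cy3 intensity, from the same reference RNA, differed between the groups compared. It was 66.2 to 74.3 in wild-type and 88 to 104 in *Nrf2-/-* at P7, and 263 to 331 and 254 to 412 in adults. Neither gene-level difference was called by limma, and the difference between P7 and adult was not tested.

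At P7 the effect of Keap1 loss differed with and without Nrf2, by limma's interaction test, for 4 named genes of the wider pathway. The difference was -1.65 for *Foxa1* (adjusted p = 0.000317), -1.22 for *Ccnd2* (adjusted p = 0.00524), -0.99 for *Bmp4* (adjusted p = 0.014) and 1.23 for *Spop* (adjusted p = 0.00201), where 15.2% of tested genes were called. With median centring *Bmp4* (-0.73, adjusted p = 0.0651) and *Ccnd2* (-0.96, adjusted p = 0.0503) were not called, and with all 27 arrays in 1 limma fit *Ccnd2* (adjusted p = 0.0647) and *Spop* (adjusted p = 0.0554) were not. The *Keap1-/-* arrays in this test have a slide and scan session of their own, which cannot be told apart from the genotype.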

How the results depend on the processing

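Of 2432 values of the 8 genes under alternative settings, 2322 kept their side of the limma threshold and any called direction (126 of these changed sign while uncalled), 57 lost a call, 47 gained one and 6 turned direction. For *Shh* the processed signals and the deposited ratios gave 0.41 and 0.42 from E11.5 to P7 and 0.13 and 0.14 from embryonic to postnatal. *Ptch1* turned to -0.42 in *Keap1-/-* with median centring and to 0.55 from P7 to adult in Cy5 alone, and the causes were not tested. From embryonic to postnatal *Ptch1*, *Gli1*, *Gli2* and *Gli3* were called under all 27 alternatives and *Hhip* under all 26 that tested it.

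The number of the 8 genes called moved by over 1.5 times, or to or from 0, as follows. From E15.5 to P0 (5) it was 2 with processed signals or deposited ratios, and 3 with median centring or a both-channel filter (60% of arrays). From P0 to P7 (1) it was 0 with processed signals, deposited ratios, median centring, scale normalization, the both-channel filter and Cy5 alone, and 2 with all 27 arrays in 1 fit. From P7 to adult (4) it was 2 with the both-channel filter. Smaller moves in Cy5 alone were to 5 there, with *Ptch1* called higher, and to 7 from E11.5 to P7 (6). For *Keap1-/-* against wild-type (1) it was 4 with median centring, 3 with slide as a random block or the mean over probes above background, 2 with the brightest probe or Cy5 alone, and 0 with the both-channel filter or all 27 arrays. Against the double mutant (1) it was 0 with outliers left out, processed signals, deposited ratios, no background correction, scale normalization, no filter, the both-channel filter, all 27 arrays, and Cy5 alone. For the double mutant against wild-type (0) it was 1 in Cy5 alone.

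With 1 array left out, it ranged from 5 to 6 for the F test, 4 to 6 from E15.5 to P0, 0 to 1 from P0 to P7, 6 to 7 from E11.5 to P7, 6 to 8 from embryonic to postnatal, 2 to 4 from P7 to adult, 0 to 2 for *Keap1-/-* against wild-type and 0 to 1 against the double mutant, and stayed at 0 elsewhere. With the replicate number as a block, *Hhip* in *Keap1-/-* against the double mutant was no longer called (-0.38, limma adjusted p = 0.0717), which left 0 genes there, and *Gli2* from E15.5 to P0 was called (-0.52, limma adjusted p = 0.0247). Dim Cy3 limits the *Shh* and *Hhip* ratios, and dim Cy5 limits both in adults.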
